A study of Mus musculus with 16 samples.

Results

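The proteasome subunit genes were selected by name from the table of raw counts that the authors deposited for 16 mouse osteosarcomas. A gene was a member if it was annotated as protein coding and its symbol began with *Psma*, *Psmb*, *Psmc*, *Psmd* or *Psme* followed by a number, and the inducible subunits *Psmb8*, *Psmb9* and *Psmb10* were kept apart. This gave 41 of the 25054 genes in the table, of which 16840 are protein coding. The members comprised 7 genes of the alpha ring and the alternative alpha subunit *Psma8*, 4 structural and 3 catalytic beta subunits, 6 ATPases and 3 other subunits of the base, 8 lid subunits, 3 chaperones of base assembly and 4 genes of proteasome activators. The last 2 members carry a proteasome name only: *Psmc3ip* encodes a factor of homologous recombination, and *Psme2b* is a copy of *Psme2*. The thymic subunit *Psmb11* was not analysed here.

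The proteasome is the protease that degrades proteins marked with ubiquitin chains. Its core particle is a barrel of alpha and beta rings with the active sites inside, and the regulatory particle on its ends, made of a base and a lid, binds ubiquitin, removes it, and unfolds and feeds in the substrate. When degradation falls behind, the transcription factor NFE2L1 raises the subunit genes together, and under interferon the active-site subunits of the core are exchanged for inducible ones. In skeletal muscle the proteasome carries out much of the turnover of contractile proteins.

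The tumors arose in mice over 6 months of age, male and female, that had received 400 ug of tamoxifen per g of body weight at 1 month. All mice carried OsxCreERT2+/- together with p53fl/fl and Rb1fl/fl, so that both tumor suppressors could be deleted in cells in which the Osterix promoter is active, which are mainly osteoblast precursors. The 8 tumors labeled KO also carried Arid1afl/fl and were taken from 8 mice. The 8 tumors labeled WT lacked that allele and, going by their animal codes, represent 4 mice, with 4 tumors of N42 and 2 of N43. P-values therefore treat tumors of the same mouse as independent. *Arid1a*, a subunit of the SWI/SNF chromatin remodeler, was at 107 to 270 (median 179) CPM (counts scaled to library sizes that were normalized by TMM) in the tumors labeled KO and at 125 to 236 (median 166) in those labeled WT, so the label was not reflected in its gene-level count (log2 fold change 0.16 ± 0.22 SE, edgeR adjusted p = 0.715). A count over the whole gene does not show whether the floxed exons were lost, and KO and WT below are the labels.

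Depth and tissue content differed between the groups. Total counts were 1109487 to 15059640 in KO tumors and 7806160 to 16962329 in WT tumors, and the members together had 903 counts in the shallowest library, the KO tumor Massa, 1319 in the KO tumor Grilka, and up to 57235 in WT tumors. The osteoblast markers together ranged from 714 to 59758 CPM in KO tumors and from 2895 to 83608 CPM in WT tumors. Markers of skeletal muscle, 8 genes such as *Acta1* and *Ckm*, summed to 98454 CPM in the KO tumor Montana and 147789 CPM in the KO tumor Oregon, with no marker at 0 in either, and to between 2.64 and 8212 CPM in the others. Lung markers were high in the WT tumor labeled lung (26347 CPM) and in Massa (11041 CPM), salivary gland markers in the KO tumor Prince (17369 CPM) and liver markers in the KO tumor Zelda (1205 CPM). Counts of 3 features that follow ribosomal RNA left in a library summed to 3516 to 579735 CPM in KO tumors, highest in Grilka, Massa (427740 CPM), Oregon (165416 CPM) and Medusa (119497 CPM), and to 868 to 17217 CPM in WT tumors, and all 3 were called higher in KO. Bulk RNA cannot tell apart fewer cells of a type and less RNA per cell.

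Of the 41 members 40 passed the filter on low counts. All members together held 0.0728% to 0.368% of all counts. Per kilobase of transcript, the WT median was highest for *Psma7* of the alpha ring (95.4 CPM per kb) and lowest in that ring for *Psma2* (13.6 CPM per kb), although each alpha subunit occurs at the same number of copies in the particle. Of the beta subunits without an active site *Psmb3* was the highest at 67.4 and *Psmb1* the lowest at 41.3 CPM per kb. The active-site subunits were at 65.1 for *Psmb6*, 46.7 for *Psmb7* and 27.1 CPM per kb for *Psmb5*. The base ATPases ran from 23.9 (*Psmc1*) to 51.8 CPM per kb (*Psmc3*), the other base subunits from 36.5 (*Psmd1*) to 49.8 (*Psmd2*), and the lid from 18.8 (*Psmd13*) to 44.4 (*Psmd8*). The chaperones of base assembly, which leave the finished particle, were lower at 4.10 (*Psmd10*) to 9.36 CPM per kb (*Psmd9*), and the activators were at 23.3 (*Psme3*) to 33.6 (*Psme4*). *Psmc3ip* and *Psme2b* were at 2.18 and 2.61 CPM per kb. Some of these ranks depend on the length used: over the union of all exons *Psmd8* was at 31.0, below *Psmd6* at 34.5, *Psmd4* at 30.2 was the lowest of the other base subunits, and *Psmb1* was at 21.2 CPM per kb. The level of *Psmb5* is uncertain, because the processed pseudogene *Gm3375* matches its transcript at 98.9% identity over 796 bases and was assigned 29.8% as many counts over all tumors.

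Promoter sequence was examined because subunit genes are known to respond together. An entry was found for 34 members in the RefSeq promoter table (GRCm38.p6, 250 bases before to 50 after each start). The letters TGACNNNGC, which NFE2L1 and NFE2L2 bind, stood on either strand in 6 of the 34 (17.6%) and in 14% of all 27025 genes in the table. CCAAT, the box bound by NF-Y, stood in 13 members (38.2%) against 41.1% of all genes, and the palindromic site of nuclear respiratory factor NRF1 in 6 members (17.6%) against 5.19% of all genes. The 6 with the last motif were *Psma2*, *Psma3*, *Psma4*, *Psmc4*, *Psmc5* and *Psmd14*. A match of letters is a description and not evidence of binding. The stretches of 120 bases shown end just before the annotated start of each gene and run 5′ to 3′ on the strand of the gene, with matches to these motifs in capitals, each capital run being a match to a single motif. *Psmb4* and *Psmd4* are shown because these neighboring genes on chromosome 3 stood out in the same tumor, *Psmb5* and *Psmb6* as active-site subunits with the NFE2L1 letters, and *Psmc5* and *Psmd8* as regulatory particle genes with a wide range among KO tumors. They lie at chr3:94886962-94887081 (minus strand), chr3:95042615-95042734 (minus), chr14:54618023-54618142 (minus), chr11:70525237-70525356 (plus), chr11:106256034-106256153 (plus) and chr7:29180702-29180821 (minus), in that order.
Psmb4: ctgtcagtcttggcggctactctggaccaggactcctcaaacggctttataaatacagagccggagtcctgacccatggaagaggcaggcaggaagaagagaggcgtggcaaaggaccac
Psmd4: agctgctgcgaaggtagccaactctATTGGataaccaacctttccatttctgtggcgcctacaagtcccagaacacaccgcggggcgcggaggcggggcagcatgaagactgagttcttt
Psmb5: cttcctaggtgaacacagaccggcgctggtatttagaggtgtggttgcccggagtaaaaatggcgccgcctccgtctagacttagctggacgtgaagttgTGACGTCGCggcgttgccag
Psmb6: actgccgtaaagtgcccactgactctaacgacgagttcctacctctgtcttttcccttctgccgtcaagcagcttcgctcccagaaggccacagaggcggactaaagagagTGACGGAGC
Psmc5: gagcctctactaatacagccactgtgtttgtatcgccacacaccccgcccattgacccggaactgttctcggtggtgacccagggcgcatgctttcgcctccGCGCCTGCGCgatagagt
Psmd8: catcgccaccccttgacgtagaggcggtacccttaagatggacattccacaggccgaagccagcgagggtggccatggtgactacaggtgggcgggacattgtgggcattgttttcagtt

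The comparison of KO with WT tumors asked whether floxed *Arid1a* went with other levels of the proteasome genes. No member passed the test. With edgeR's quasi-likelihood test on TMM-normalized counts and an adjusted p threshold of 0.05, 0 of 40 members were called, against 4.01% of the 15413 genes tested (1.86% higher and 2.15% lower in KO). At an unadjusted p under 0.05 there were 3, *Psmd7*, *Psmd4* and *Psmc5*, which is 7.5% of the members against 23% of all genes. DESeq2 called 2 of 41 members (*Psmd4* and *Psmd7*), against 10% of all 25054 genes, of which 4976 had no adjusted p. The limma-voom fit, with a random effect for the mouse, called 0 of 40 members, against 0.11% of the 15413 genes tested. The median log2 fold change of the members was 0.17, with 26 estimates above 0 and 14 below, next to a median of 0.10 over all genes tested, and it turned to -0.40 on plain library totals, where the median of all genes was -0.33. Of the members 34 (85%) had an estimate within 0.5 of 0, against 51.2% of all genes tested. These shares compare estimates of unlike precision, since the median standard error was 0.29 for the members and 0.42 for all genes tested. KO and WT tumors overlapped for every member, while 0.415% of all genes had groups that did not overlap. The standard error of a member's log2 fold change was 0.18 to 0.55 (median 0.29), and estimates as large as 1.41 did not pass the threshold, so a member without a call is not shown to be alike in both groups.

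**Figure D1:**
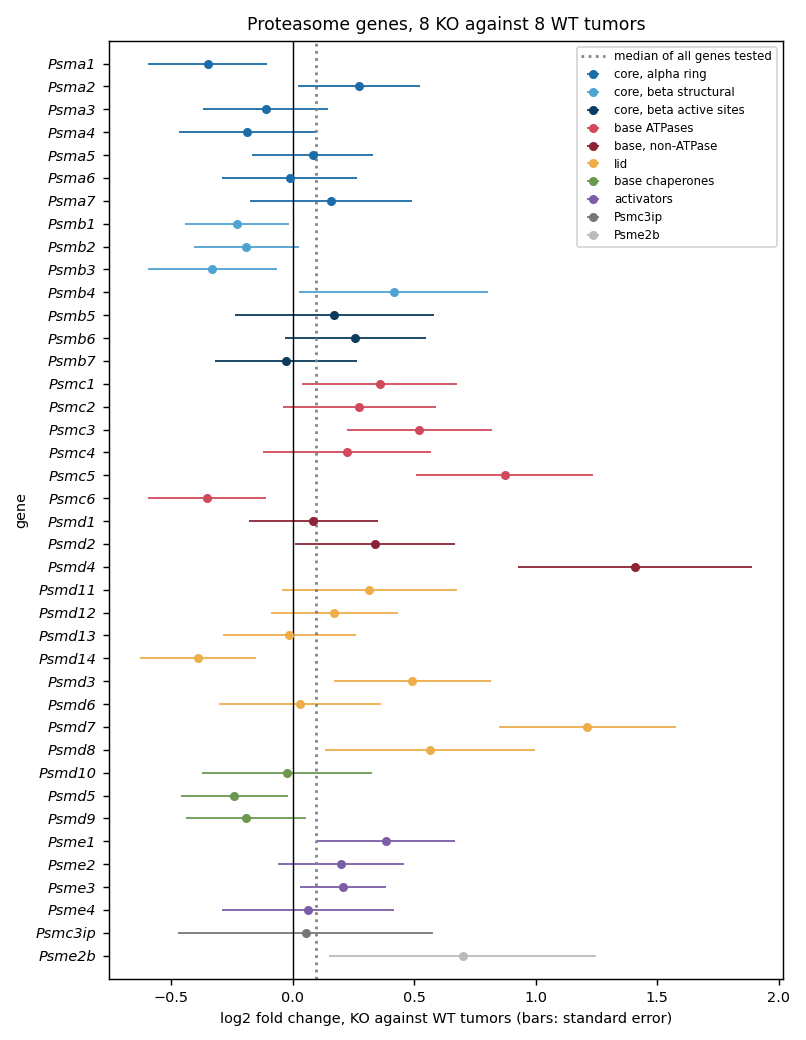
Log2 fold change of the 40 tested members, 8 KO against 8 WT tumors (edgeR; bars are the standard error; colors give the place in the proteasome; the dotted line is the median of all genes tested). Estimates for the core lie between -0.35 and 0.42, and the highest are *Psmd4* at 1.41 and *Psmd7* at 1.21, neither past the adjusted threshold.

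In the core particle the 14 subunits were spread around 0 (6 above and 8 below; median -0.02), and none had an unadjusted p under 0.05. *Psmb5*, which carries the chymotrypsin-like activity, was at 9.93 to 66.6 (median 14.6) CPM in KO tumors and at 14.1 to 36.9 (median 24.3) in WT tumors. *Psmb6*, the caspase-like subunit, was at 30.5 to 116 (median 60.3) CPM in KO tumors and at 41.7 to 78.9 (median 51.9) in WT tumors. *Psmb7*, the trypsin-like subunit, was at 26.8 to 109 (median 41.4) CPM in KO and 36.8 to 75.1 (median 54.2) in WT. For all 3 the highest 2 tumors were Montana and Oregon, and the other 6 KO tumors lay within or below the WT range. Approximate 95% intervals of their log2 fold changes were -0.63 to 0.98 for *Psmb5*, -0.31 to 0.83 for *Psmb6* and -0.60 to 0.54 for *Psmb7*. These intervals took the SE with a normal quantile, which makes them too narrow for so few tumors. Exons of *Psmb7* share 34.9% of their length with *Nek6* on the opposite strand, and whether strand was used in counting is not given in the sources used here.

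The inducible subunits take the same places in the ring, so their ratio to the constitutive ones was compared within each tumor. The log2 ratio of *Psmb8* to *Psmb5* was -2.88 to 1.88 (median -0.12) in KO tumors and -1.06 to 1.05 (median 0.23) in WT tumors, which differed by -0.39 (exact permutation, two-sided, p = 0.577, adjusted 0.866 over 3 ratios). *Psmb9* to *Psmb6* was at -4.65 to -0.86 (median -2.65) in KO and -3.75 to -1.99 (median -2.86) in WT, a difference of 0.08 (exact permutation p = 0.890). *Psmb10* to *Psmb7* was at -3.23 to 1.33 (median -1.90) in KO and -3.10 to -1.24 (median -2.70) in WT, a difference of 0.86 (exact permutation p = 0.122, adjusted 0.365). The KO tumors spread wider than the WT tumors in every ratio: Montana and Oregon were the lowest 2 KO tumors for *Psmb8* and for *Psmb10*, and Medusa, Zelda and Massa were the highest. Without Montana and Oregon the difference in *Psmb10* to *Psmb7* was 1.29 (exact permutation, adjusted p = 0.0390), an alternative chosen after the data were seen. This test takes tumors of the same mouse as independent. With the ratio averaged per mouse over all tumors, the difference was 0.69 (exact permutation, adjusted p = 0.822). *Psmb10* in Massa, at 69.1 CPM, rests on a library in which 3 counts are worth 6.69 CPM. Other KO ratios also rest on few counts: *Psmb5* had 5 counts in Massa and 11 in Grilka, and *Psmb9* had 2 in Grilka. As single genes *Psmb8*, *Psmb9* and *Psmb10* had log2 fold changes of -0.45, 0.34 and 0.95 with edgeR adjusted p of 0.485, 0.613 and 0.189, and *Psmb10* was at 0.39 (adjusted p = 0.419) without Massa and at 0.25 on plain library totals. Macrophage markers, whose cells carry inducible subunits, summed to 120 to 505 CPM in KO and 296 to 1745 CPM in WT tumors (7 of 8 called lower), and 0 of 8 interferon-induced genes were called, with sums of 81.7 to 323 CPM in KO and 125 to 310 CPM in WT. Their part in the ratios was not tested.

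**Figure D2:**
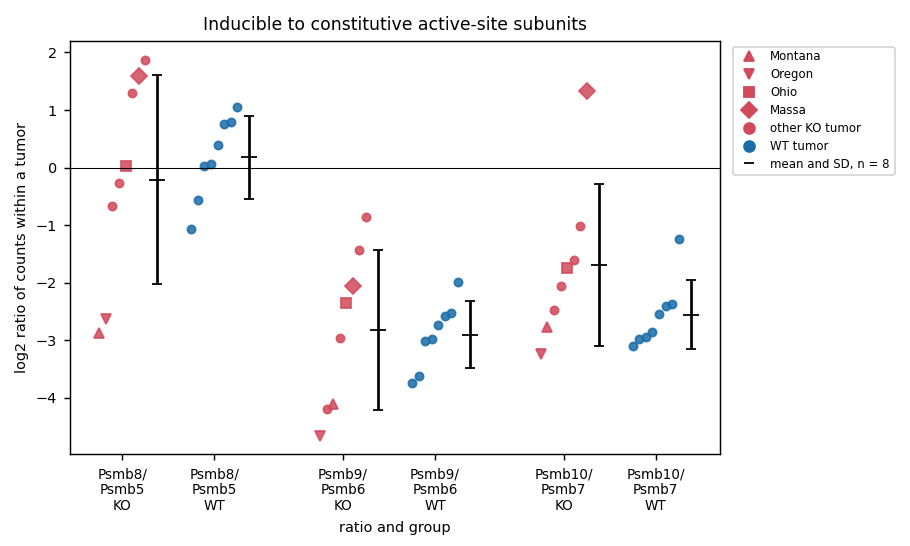
Log2 ratio of the counts of an inducible to a constitutive active-site subunit in each tumor (points; black bars are the mean and SD of 8 tumors). KO tumors span -2.88 to 1.88 for *Psmb8* to *Psmb5* and WT tumors -1.06 to 1.05, and Montana and Oregon are among the 3 lowest KO tumors in each ratio.

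The regulatory particle had the highest estimates of the members. Of its 17 subunits 14 were above 0 (median log2 fold change 0.32), none past the adjusted threshold. Of all 15413 genes tested, 8611 were above 0 (median 0.10). *Psmd7*, the lid partner of the deubiquitinase PSMD14, was at 27.9 to 179 (median 55.1) CPM in KO tumors and at 25.6 to 41.4 (median 29.7) in WT tumors. Its KO values fell in a set of 4 above all WT tumors, Montana, Oregon, Massa and Grilka, and a set of 4 inside the WT range. The log2 fold change was 1.21 ± 0.36 SE (edgeR adjusted p = 0.0647), and it was 0.55 (adjusted p = 0.281) without Montana and Oregon, 0.50 (adjusted p = 0.450) on plain library totals and 0.79 (adjusted p = 0.638) when limma-voom took the mouse as random.

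*Psmd4*, a ubiquitin receptor of the base, was at 35.2 to 357 (median 68.5) CPM in KO tumors and 33.2 to 85 (median 55.4) in WT tumors. Ohio, Montana and Oregon, at 357, 323 and 238 CPM, were above every WT tumor, and the other 5 KO tumors were within the WT range. The log2 fold change was 1.41 ± 0.48 SE (edgeR adjusted p = 0.0945), 0.89 (adjusted p = 0.316) without Montana and Oregon and 1.08 (adjusted p = 0.164) without Ohio. With ribosomal RNA content as a covariate it was 2.14 (adjusted p = 0.259). The ATPase gene *Psmc5* was at 20.8 to 137 (median 39.1) CPM in KO and 23.7 to 42 (median 32.0) in WT, again with Montana and Oregon far above the rest, and with Massa and Medusa also above the WT range. Its log2 fold change was 0.87 ± 0.36 SE (adjusted p = 0.163), 0.13 without Montana and Oregon and 0.20 on plain library totals. *Psmd8*, a lid subunit, was at 31.0 to 262 (median 53.3) CPM in KO and 46.3 to 87.2 (median 68.3) in WT. Its estimate of 0.57 ± 0.43 SE (adjusted p = 0.460) turned to -0.48 without Montana and Oregon and to -0.12 on plain library totals. *Psmd14* itself, the deubiquitinase, had the lowest estimate of the members, -0.39 ± 0.24 SE (adjusted p = 0.344), with 20.1 to 55.2 CPM in KO and 35.7 to 72.6 in WT.

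**Figure D3:**
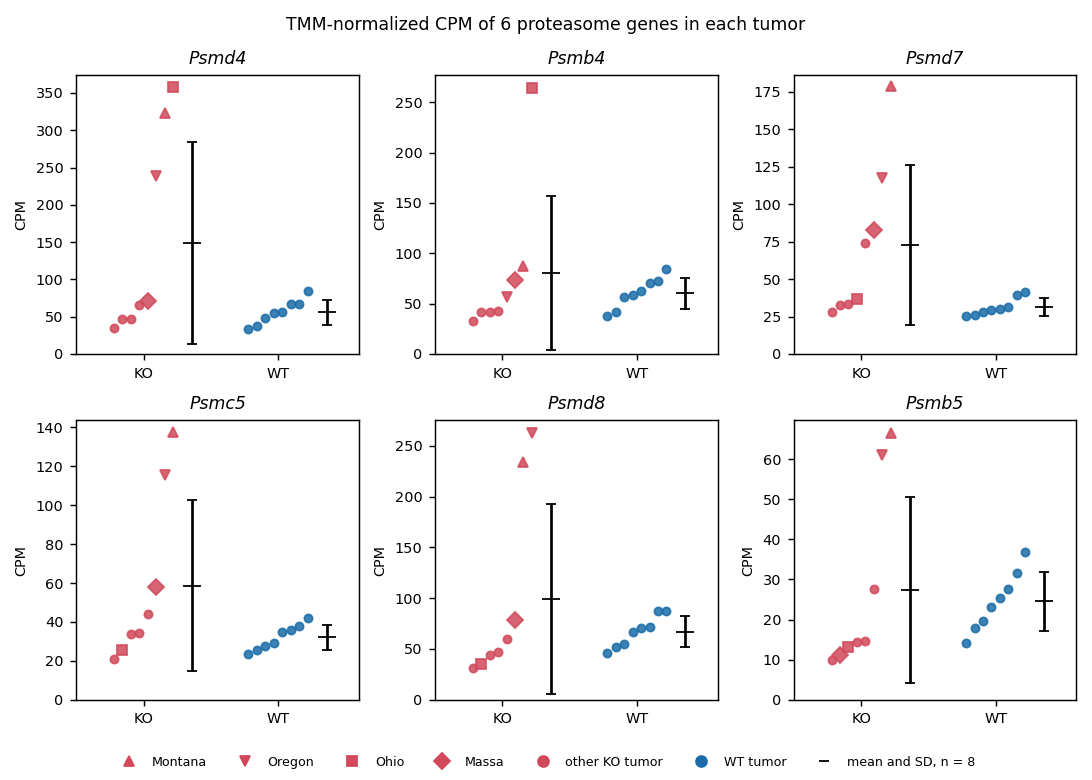
TMM-normalized CPM of 6 proteasome genes in each tumor (points; named KO tumors have their own symbols; black bars are the mean and SD of 8 tumors). Ohio is the highest tumor for *Psmd4* (357 CPM) and *Psmb4* (264 CPM), and Montana and Oregon are the highest for *Psmd7*, *Psmc5*, *Psmd8* and *Psmb5*.

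Estimates for the chaperones and activators lay close to 0. *Psmd5*, *Psmd9* and *Psmd10*, which help to assemble the base, had estimates of -0.24 to -0.02. *Psme1* and *Psme2*, the interferon-responsive PA28 activator, were at 0.39 and 0.20, the nuclear activator *Psme3* at 0.21 and *Psme4*, which encodes PA200, at 0.06, with adjusted p of 0.441 or more. Of the members that carry the name only, *Psmc3ip* was at 0.05 ± 0.52 SE and *Psme2b* at 0.70 ± 0.55 SE (adjusted p = 0.474). *Psme2b* was at 0 to 11.7 (median 2.15) CPM in KO and 1.31 to 4.13 (median 2.19) in WT, on 604 counts over all 16 tumors, with Zelda and Medusa high and Grilka at 0. *Psma8*, the alpha subunit of male germ cells, was left out by the filter, with 191 counts in Ohio, 49 in Zelda, 0 in Montana, Oregon and Grilka, and at most 32 in each of the others.

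Genes that serve the proteasome were compared in the same fit. The unfoldase gene *Vcp* and the ubiquitin genes *Ubb* and *Rps27a* had log2 fold changes of 0.29, 0.44 and 0.11 (edgeR adjusted p of 0.406 or more). None of 5 core assembly chaperones was called, with *Pomp* at 0.13, *Psmg1* at 0.64 (0.05 without Grilka) and *Psmg2* at -0.10, and none of 9 associated factors, with *Ecpas* at 0.57, *Zfand5* at 0.20 and *Ube3c* at 0.01. None of 9 regulators was called. *Nfe2l1* was at 0.94 ± 0.41 SE (edgeR adjusted p = 0.177), and at 0.24 on plain library totals. *Ddi2*, the protease that activates NFE2L1, was at -0.21 and *Mafg* at -0.08. *Nfe2l2* was at -0.56 (edgeR adjusted p = 0.168), and at -1.07 on plain library totals. *Keap1*, the inhibitor of NFE2L2, was at 0.82 (edgeR adjusted p = 0.0764).

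The widest differences in the proteasome genes lay between tumors of the KO group. The deviation of a gene in a tumor was taken as its log2(CPM + 0.5) minus the median of the 16 tumors. The median deviation of the 40 members was 0.84 in Montana and 0.92 in Oregon and lay between -0.26 and 0.41 in the others, while the median over all genes was -0.02 and -0.05 in those 2 tumors. The members summed to 4682 CPM in Montana and 4288 CPM in Oregon, and to between 1730 and 2782 CPM in the other tumors. As a share of all counts, without TMM, Montana was the highest at 0.368% and Oregon, at 0.267%, was inside the range of the WT tumors (0.212% to 0.359%); the 20 most abundant genes took 34.6% and 43.7% of the counts of these libraries. These were the 2 tumors with the highest sums of skeletal muscle markers, and the part of muscle tissue in the difference was not tested.

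**Figure D4:**
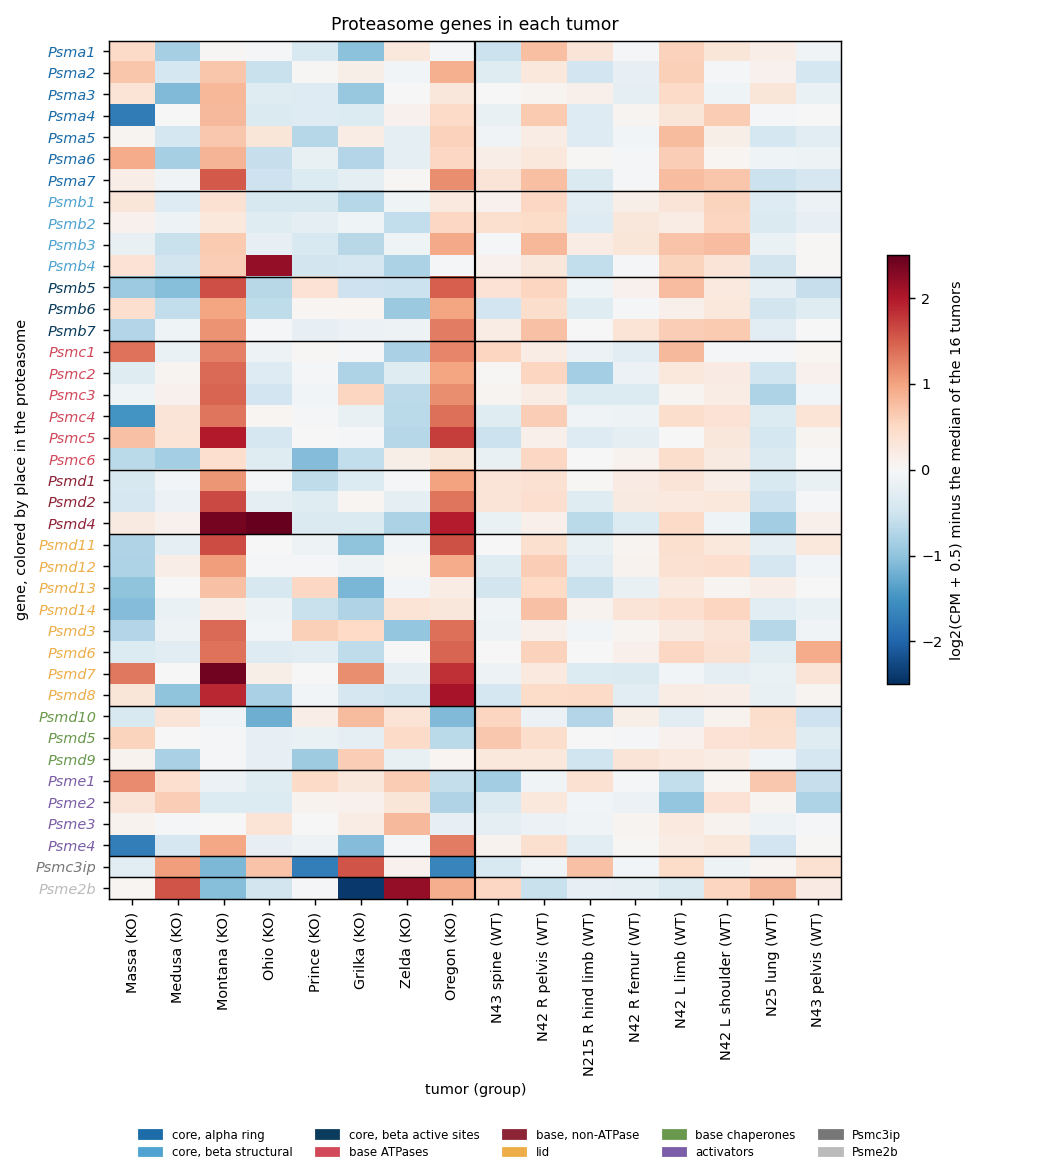
Deviation of each tested member (rows, grouped by place in the proteasome) in each tumor (columns, KO left and WT right of the line), as log2(CPM + 0.5) minus the median of the 16 tumors. Montana and Oregon are high through the core active sites, base and lid, and their median deviations over all tested members are 0.84 and 0.92. Ohio is over 2 log2 units above the median at *Psmb4* and *Psmd4*.

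The parts of the proteasome differed in these 2 tumors. Montana and Oregon were the 2 highest of the 16 tumors for 17 of 40 members (42.5%), against 9.24% of all genes, and both lay over 1 log2 unit above the median tumor for 14 members (35%), against 12.3% of all genes. They were the lowest pair for 0 members, against 5.08% of all genes. The median deviations in Montana and Oregon were 1.38 and 1.19 for the base ATPases, 1.65 and 1.34 for the other base subunits, 1.39 and 1.42 for the lid and 1.12 and 1.27 for the active-site subunits. They were lower, 0.82 and 0.52 for the alpha ring and 0.50 and 0.38 for the structural beta subunits. The base chaperones were at -0.05 and -0.68 and the activators at -0.07 and -0.40, although *Psme4* among them was at 0.97 and 1.29. *Psmc3ip* was at -1.13 and -1.65, on only 4 counts in Montana and 2 in Oregon. Within the regulatory particle the lowest were *Psmd14*, at 0.16 and 0.28, *Psmc6*, at 0.43 and 0.30, and *Psmd13*, at 0.73 and 0.19. Since these tumors were singled out by their muscle markers after the data were seen, no test is given.

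Of 36 tested genes that serve the proteasome, 11 (30.6%) were over 1 log2 unit above the median tumor in both Montana and Oregon, against 12.3% of all genes, and 6 were below it in both. None of the 5 core assembly chaperones was among the 11. *Nfe2l1* was at 652 CPM at its highest, and its deviation was 2.11 in Montana and 2.01 in Oregon, while *Nfe2l2* was at -0.09 and -0.70. The ubiquitin receptor *Adrm1* was at 1.88 and 1.48, the proteasome adaptor *Ecpas* at 1.61 and 1.48, *Zfand5* at 1.33 and 1.57, and *Vcp* at 1.36 and 1.18. Lower ones were *Rps27a* at -0.42 and -0.36, the deubiquitinase gene *Uchl5* at -0.13 and -0.21, and *Uba1*, which activates ubiquitin, at 0.27 and -0.03. The core assembly chaperone *Pomp* was at 0.27 and 0.40, and *Psmg1* to *Psmg4* were at -0.53 to 0.18. *Psmb8* was at -1.25 and -1.12. Proliferation markers together were 14.5 CPM in Montana and 42.5 CPM in Oregon, against 123 to 811 CPM in WT tumors, and they were also low in the KO tumors Prince (18.4 CPM) and Massa (49.1 CPM), where the median deviation of the members was -0.15 and 0.06. Without these 2 tumors the median log2 fold change of the members was -0.26, next to 0.04 over all genes, and *Nfe2l1* was at 0.20.

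Ohio differed in another way. *Psmb4*, a structural beta subunit, was at 33.2 to 264 (median 49.6) CPM in KO tumors and 37.4 to 84.1 (median 60.2) in WT tumors, with Ohio at 264 CPM and every other KO tumor at 87.7 CPM or less. Its log2 fold change was 0.42, and it was -0.18 to 0.53 when single tumors were left out. With ribosomal RNA content as a covariate it was 1.19 (edgeR adjusted p = 0.429). The deviations of *Psmb4* and *Psmd4* in Ohio were 2.19 and 2.54, and no other tested member was over 2 there (2 of 40, against 2.41% of all genes). They were the members for which Ohio was the highest tumor (2 of 40, 5%, against 7.18% of all genes), and for the other 38 it was not. The median deviation of all members in Ohio was -0.26. *Psmb4* and *Psmd4* lie close together on chromosome 3, at 94884093 to 94886961 and 95032694 to 95042614 (mm10), and both are transcribed from the minus strand.

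Genes around this pair were also high in Ohio. Within 1 Mb of *Psmb4* the median deviation of 52 other tested genes was 2.52, and 33 of them were highest in Ohio. Within 1 Mb of *Psmd4* it was 2.44 over 58 genes, of which 37 were highest in Ohio. The windows overlap, and these were the 2 highest among 656 pairs of a member and a tumor that were scanned. From 1 Mb before to 3 Mb after the start of *Psmd4*, a stretch chosen after the values were seen, 68 of 104 genes (65.4%) were highest in Ohio, with a median of 5.11 times the median of the other tumors. On the rest of chromosome 3 it was 171 of 734 genes (23.3%), with a median of 1.56 times. Over all genes tested 1107 of 15413 (7.18%) were highest in Ohio. The median deviation in Ohio was 0.56 on the rest of chromosome 3 and 0.01 over all genes, so the rest of this chromosome was also raised. The level was not even along the stretch. The median deviation was 2.96 over 18 genes in the 1 Mb before the start and 2.15 over 41 and 2.07 over 36 genes in the next 2 Mb. In the last 1 Mb of the stretch, 2 to 3 Mb after the start, it was 0.78 over 9 genes. Of these 9 genes 3 were highest in Ohio, among them *Acp6* and *Bcl9* at 12.7 and 17.2 times the median of the other tumors. Outside the stretch the median deviation was -0.32 over 3 genes between 1 and 2 Mb before the start. Farther along it was 0.65 over 5 genes between 3 and 4 Mb and 1.43 over 4 genes between 4 and 5 Mb, of which 3 were highest in Ohio. In this stretch *Setdb1*, a histone methyltransferase gene, was at 1061 CPM in Ohio against 41.6 to 89.5 CPM in WT tumors, and *Mcl1*, a survival gene, was at 748 CPM against 175 to 365 CPM. *Psma5*, farther along the same chromosome, had a deviation of 0.31. DNA copy number was not measured, and its part in these values was not tested.

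**Figure D5:**
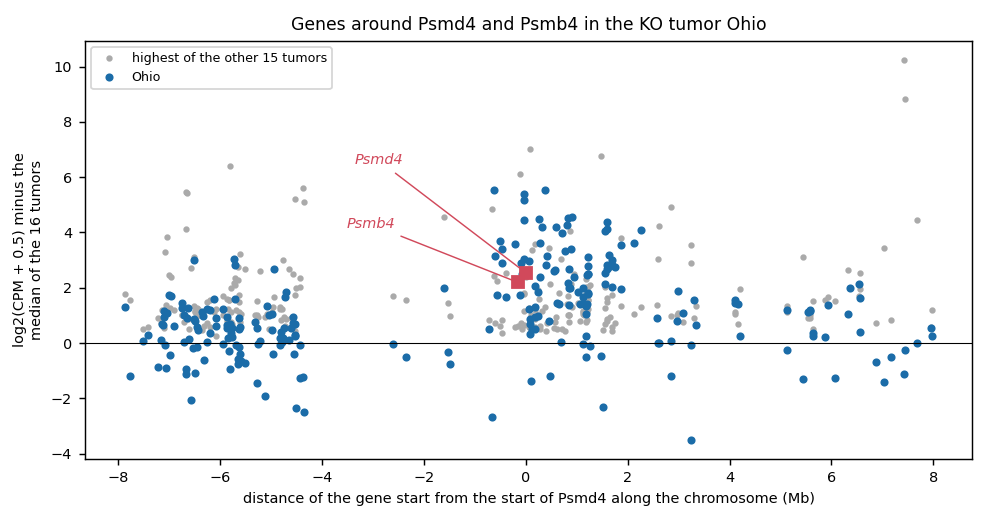
Deviation of tested genes on chromosome 3 in the KO tumor Ohio (blue; *Psmb4* and *Psmd4* in red) and in the highest of the other 15 tumors (grey), against the distance of the gene start from the start of *Psmd4* in Mb. In the 1 Mb before and the 2 Mb after that start the median of Ohio lies between 2.07 and 2.96.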

How the data were processed

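Total RNA of 16 tumors was depleted of ribosomal RNA and sequenced from one end. Per the labels and methods, the authors aligned reads with Novoalign 2.08.01 to mm10 and counted them per gene. The deposited values are whole raw counts, without normalization, and no gene totals under 6. The strand used in counting is not given in the sources used here.

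Groups came from the genotype labels. All genes were fitted with edgeR 4.0.16 (R 4.3.3): TMM, filterByExpr (minimum count 10, minimum total 15), glmQLFit and glmQLFTest, Benjamini-Hochberg, threshold 0.05. DESeq2 1.42.0, limma 3.58.1 and other filters, scalings and subsets of tumors were alternatives. The fits were tested on simulated data. Log2 CPM used a pseudocount of 0.5, as did ratios, which were compared over all 12870 splits of the tumors (smallest possible p 0.0001554). Positions and transcript lengths came from GENCODE vM21 (GRCm38), and pseudogenes were matched with blastn 2.17.0 (90% identity, 100 bases). A count of 3 is worth 4.03 CPM in Grilka and 0.146 to 0.340 CPM in WT tumors, a floor that covers counting error only.

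The members and gene lists were chosen with earlier results of these data known. Named are members past the threshold, the 5 others with the largest fold change, the untested member, the most and least abundant of each structural group per length, the active-site subunits and *Psmc3ip*, and of the other lists the genes called and the 3 most abundant. Other genes named, such as *Adrm1*, *Uchl5*, *Uba1*, *Keap1*, *Setdb1* and *Mcl1*, were chosen after their values were seen. Some results of the lists of other genes are not reported here.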

Additional observations from a re-analysis of the deposited data

Results flagged for a closer look

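In 88 groups of 8 tumors the gap of the highest or lowest tumor to its neighbor, divided by the range of the group, was compared with Dixon's 95% critical value, which chance passes in about 1 of 20 groups, and 4 groups passed. In KO tumors *Psma4* was lowest in Massa (0.544), where it rests on 6 counts, and *Psmb4* was highest in Ohio (0.533). In WT tumors the lid gene *Psmd3* was lowest in the tumor labeled lung (0.561), and the ratio of *Psmb10* to *Psmb7* was highest in that same tumor (0.608).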

How the results depend on the processing

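No paired analysis was possible because KO and WT tumors came from different mice. The number of genes called, 618, was 2517 with DESeq2, 17 with limma-voom and the mouse as a random effect, 8 without mouse N42, 10 with counts summed per mouse, 7 with ribosomal RNA content as a covariate and 372 without Montana and Oregon; leaving out single tumors gave 252 to 1348. The number of members called, 0, was 2 with DESeq2 and 1 (*Psmd4*) with Medusa and Ohio as the only KO tumors, and 0 to 2 without single tumors (*Psmd7* and *Psmd4* without Zelda, *Psmd7* without Prince). The median log2 fold change of the members, 0.17, was -0.34 with Medusa and Ohio alone, -0.26 without Montana and Oregon, -0.40 on library totals, 0.35 without mouse N42, 0.30 with counts summed per mouse and -0.01 (without Montana) to 0.22 without single tumors. Without Montana and Oregon the ratio of *Psmb10* to *Psmb7* differed by 1.29, and with the mean per mouse by 0.69. Without single tumors it differed by 0.42 (without Massa) to 1.08. *Psmb8* to *Psmb5* differed by -0.69 to -0.01 without single tumors, and *Psmb9* to *Psmb6* by -0.21 to 0.34. The cause of these shifts was not tested. Leaving out Montana and Oregon and using library totals were chosen after the data were seen. Among the other single genes named, *Keap1* was past the threshold with DESeq2 and without Zelda.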
